A study of Mus musculus with 12 samples.

Results

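The set examined comprised 10 genes of the integrated stress response and the unfolded protein response, Atf4, Atf5, Ddit3, Asns, Trib3, Xbp1, Hspa5, Dnajb9, Sdf2l1 and Herpud1, chosen by symbol and measured in mouse liver on Illumina bead arrays. A probe was kept where its detection p was under 0.05 on at least 3 of the 12 arrays, which held for 15 of the 18 probes of these genes, so that all 10 genes were among the 9747 tested. Livers came from male C57BL/6 mice aged 8 weeks, in 4 groups of 3 arrays. The control group had no compound injected, per the labels. The T3 group received the thyroid hormone T3 (liothyronine) for 3 days. The XCT790 group received XCT790, an inverse agonist of the oestrogen-related receptor alpha (ESRRA), for 4 days. The last group received both compounds, XCT790 over 4 days and T3 over the final 3 of them. Injections were daily and intraperitoneal, and the labels name no vehicle for the controls. No label says that the arrays of a group came from separate mice, so the p-values measure the spread between these arrays.

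In the integrated stress response, kinases that phosphorylate the initiation factor eIF2 slow general translation while favouring translation of the transcription factors ATF4, ATF5 and CHOP (the product of Ddit3). ATF4 then drives genes of amino acid supply such as Asns and the feedback regulator Trib3. The unfolded protein response of the endoplasmic reticulum (ER) shares one of those kinases, PERK, and adds the IRE1-XBP1 and ATF6 branches, which raise chaperones such as BiP (Hspa5) and its partners (Dnajb9, Sdf2l1) and components of ER-associated degradation (Herpud1). Much of ATF4 and XBP1 regulation takes place in translation and splicing, which probe intensity does not measure.

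The promoters of the 4 genes with a match to a response element of ATF4 or of the ER stress factors in the window searched are shown. RefSeq windows (build GRCm38.p6) running from 250 bases before the transcription start to 50 after it were found for all 10 genes, Atf5 having a pair of them. Capitals mark matches to 4 motifs searched on both strands, and no match overlapped another. The C/EBP-ATF response element was searched as TGATGNAA, the core of the unfolded protein response element as TGACGTG, the ER stress response element as CCAAT and CCACG with 9 bases of any kind between, and the ER stress response element II as ATTGG and CCACG with 1 base between. Windows run 5′ to 3′ on the gene's strand. Trib3 lies at chr2:152344011-152344310 (minus strand), Asns at chr6:7693160-7693459 (minus), Herpud1 at chr8:94386179-94386478 (plus) and Hspa5 at chr2:34771840-34772139 (plus).
Trib3: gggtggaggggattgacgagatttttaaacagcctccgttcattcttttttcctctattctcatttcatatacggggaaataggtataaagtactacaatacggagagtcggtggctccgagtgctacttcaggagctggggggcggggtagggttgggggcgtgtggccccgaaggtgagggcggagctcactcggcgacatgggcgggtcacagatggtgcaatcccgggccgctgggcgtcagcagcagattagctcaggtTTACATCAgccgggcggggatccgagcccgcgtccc
Asns: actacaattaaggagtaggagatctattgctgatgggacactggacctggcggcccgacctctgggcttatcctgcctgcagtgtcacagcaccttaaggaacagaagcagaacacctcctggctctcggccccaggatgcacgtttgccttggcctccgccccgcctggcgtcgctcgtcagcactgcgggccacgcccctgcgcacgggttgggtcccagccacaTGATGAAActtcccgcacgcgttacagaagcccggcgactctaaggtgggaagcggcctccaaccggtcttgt
Herpud1: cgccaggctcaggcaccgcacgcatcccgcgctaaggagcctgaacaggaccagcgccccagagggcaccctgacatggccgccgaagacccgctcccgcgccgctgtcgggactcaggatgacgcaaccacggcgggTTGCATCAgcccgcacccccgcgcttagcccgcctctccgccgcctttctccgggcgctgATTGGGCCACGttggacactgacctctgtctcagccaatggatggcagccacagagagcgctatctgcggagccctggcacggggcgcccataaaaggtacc
Hspa5: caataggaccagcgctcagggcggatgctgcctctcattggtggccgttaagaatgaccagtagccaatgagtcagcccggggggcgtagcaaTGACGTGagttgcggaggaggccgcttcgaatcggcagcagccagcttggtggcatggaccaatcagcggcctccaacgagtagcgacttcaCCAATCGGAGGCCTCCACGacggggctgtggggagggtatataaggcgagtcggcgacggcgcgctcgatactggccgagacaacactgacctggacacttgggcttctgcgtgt
The C/EBP-ATF response element was found in Asns, in Trib3 just past the start and in Herpud1, and in 3.97% of the 32851 RefSeq windows searched. Hspa5 held the ER stress response element, found in 0.119% of windows, and the unfolded protein response element core, found in 2.01%. Herpud1 held element II, found in 0.0365%. These letters were not found in the windows of Atf4, Atf5, Ddit3, Xbp1, Dnajb9 and Sdf2l1. Neither a match nor its absence says anything of factor binding.

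Summed probe intensity ran from 14568457 to 22343383 per array and 31.9% to 35.6% of probes were detected. Values below are log2 intensities after background correction and quantile normalization. Arrays of a group correlated with r of 0.989 to 0.992 over the 9747 genes tested, and no array was identical to another. Bright signals of the hepatocyte transcripts Apoa1, Ttr and Ahsg were present on all arrays, while the Alb probe was detected on 7 of 12, although albumin mRNA is abundant in liver, so that this probe may report it poorly. The summed intensity of 13 hepatocyte markers was 231526 to 248689 in control livers, 234237 to 240849 with T3, 228376 to 235918 with XCT790 and 227288 to 244267 with both compounds, a sum carried by a few very bright probes. Of the 13, T3 raised Hnf4a by 0.46 and lowered Asgr2, with a difference of -0.83 (limma adjusted p = 0.0236 and 0.00176). Before adjustment 6 were under 0.05, where 29.9% of all genes were.

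Of the 10 stress genes, T3 alone raised 3 (Atf5, Ddit3 and Dnajb9) and lowered 1 (Trib3), as called by limma at an adjusted p under 0.05 over all genes. Across all genes 16.1% were called in this comparison, 7.24% higher and 8.91% lower. XCT790 alone raised Herpud1 and lowered Atf5, against 4.44% of all genes called, 2.29% higher and 2.15% lower. In mice given XCT790, T3 raised Atf5 only, with 15.2% of all genes called, 7.63% higher and 7.56% lower. Against control, both compounds together raised Atf5 and Ddit3 and lowered Trib3, with 18.7% of all genes called, 8.97% higher and 9.77% lower. XCT790 in mice given T3 changed 0 of the 10 by limma, 2 being under 0.05 before adjustment, and only 0.0923% of all genes were called there, 0.0718% higher and 0.0205% lower. Before adjustment, p was under 0.05 for 5 of the 10 with T3 (29.9% of all genes), 3 with XCT790 (17.9%), 3 for T3 in mice given XCT790 (28.7%), 5 with both compounds (32.1%) and 2 for XCT790 added to T3 (12.7%). The arrays of the groups compared did not overlap in 4, 3, 2, 5 and 3 of the 10 genes, in the same order, against 34.8%, 21.9%, 32.8%, 35.5% and 19.3% of all genes. Counts of only 10 genes, chosen with earlier results of these data known, are no result about the set, and the genes are described singly below. In all, 5 of the genes were called in at least 1 comparison, while Atf4, Asns, Xbp1, Hspa5 and Sdf2l1 were called in none. The comparisons with control share the 3 control arrays, and those within XCT790-treated mice share the XCT790 arrays.

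**Figure D1:**
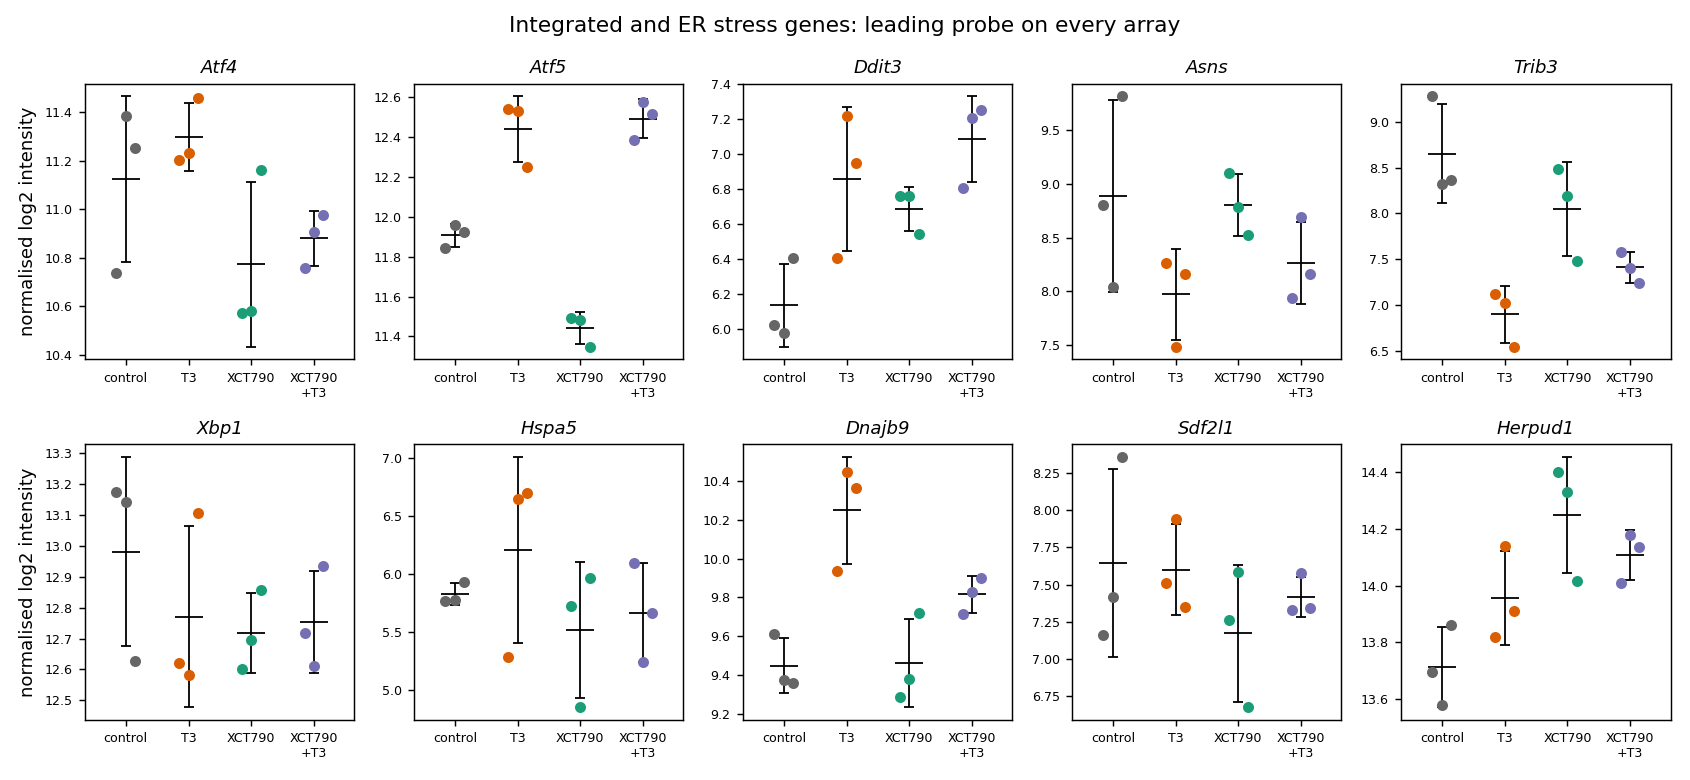
Normalised log2 intensity of the leading probe of each stress gene (vertical axis, scaled per gene) on each of the 3 arrays of the 4 groups (horizontal axis), where points are arrays, the horizontal line is the group mean and the bar is its SD. Atf5 with T3 lies between 12.25 and 12.54, above all control arrays, and Trib3 with T3 lies between 6.55 and 7.12, below all control arrays.

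Atf5, which encodes an ATF4-related transcription factor with a role in the mitochondrial stress response, moved in opposite directions with the compounds. Its probe ILMN_2646985 read 11.84, 11.96 and 11.92 on the control arrays and 12.54, 12.53 and 12.25 on the T3 arrays. It read 11.49, 11.48 and 11.35 with XCT790 and 12.39, 12.57 and 12.52 with both compounds. The XCT790 arrays were thus the lowest of the study, the control arrays came next, and the T3 arrays and the arrays with both compounds were the highest and overlapped each other. T3 raised Atf5 by 0.53 (SE 0.11, limma adjusted p = 0.00454), a 1.45-fold rise. In mice given XCT790 the rise was 1.05 (SE 0.11, limma adjusted p = 3.88e-05), or 2.07-fold. Both compounds together raised it by 0.59 over control (limma adjusted p = 0.00246). XCT790 alone gave a difference of -0.47 (SE 0.11, limma adjusted p = 0.0284). That last call was lost on leaving out any 1 of the control or XCT790 arrays (adjusted p = 0.0539 to 0.0936) and with median scaling (0.0702), though its direction held. Atf5 had less spread between arrays than most genes: its residual SD was 0.11, and 16.2% of genes had a smaller one.

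Ddit3, which encodes the pro-apoptotic factor CHOP, passed with T3 and with both compounds. Probe ILMN_2652909 read 6.02, 5.98 and 6.41 in control livers, 6.41, 7.22 and 6.95 with T3, 6.76, 6.76 and 6.54 with XCT790, and 6.81, 7.20 and 7.25 with both compounds. The highest control array lay just under the lowest T3 array, and the other treated groups lay clear of the controls. The rise with T3 was 0.72 (SE 0.20, limma adjusted p = 0.0275) and that with both compounds 0.95 (SE 0.20, limma adjusted p = 0.00633), whereas the difference of 0.55 with XCT790 did not pass (limma adjusted p = 0.157). Without background correction the differences were 0.44 and 0.58, both still called. A second Ddit3 probe, ILMN_2927373, gave smaller differences of 0.48 with T3 (adjusted p = 0.25) and 0.32 with both compounds (0.434). The T3 call was also lost without control array 1 or 2 or T3 array 2 or 3 (adjusted p = 0.0858 to 0.109).

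Atf4 itself, the transcription factor at the head of this branch, was not called in any comparison. It read 10.74, 11.38 and 11.25 in control livers, 11.20, 11.23 and 11.46 with T3, 10.57, 10.58 and 11.16 with XCT790, and 10.76, 10.91 and 10.98 with both. Control array 1 was low, and the T3 arrays lay within the range of the control arrays or just above it. The T3 difference was 0.17 with a 95% interval from -0.24 to 0.58. Atf4 with both compounds was below all T3 arrays, a difference of -0.42 that did not pass (limma adjusted p = 0.382).

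Of the ATF4 targets, Trib3 showed the largest difference among the 10 genes. Trib3 encodes a pseudokinase that restrains ATF4 and insulin signalling. Probe ILMN_1225528 read 9.28, 8.32 and 8.36 on the control arrays, 7.12, 7.03 and 6.55 with T3, 8.48, 8.19 and 7.49 with XCT790, and 7.58, 7.41 and 7.24 with both compounds. Every array given T3, alone or with XCT790, was below every control array, while the XCT790 arrays overlapped the controls. T3 lowered Trib3 by a log2 difference of -1.75 (SE 0.29, limma adjusted p = 0.00141), or 3.36-fold. With both compounds the difference from control was -1.24 (SE 0.29, limma adjusted p = 0.0107), and 2.36-fold lower. Without control array 1, which stood 0.63 above its group mean, the T3 difference was still called, and it lay between -1.92 and -1.36 over all alternatives. In mice given XCT790, the T3 difference was -0.64 (limma adjusted p = 0.163). The window of Trib3 holds the match to the C/EBP-ATF element printed above, as do those of Asns and Herpud1.

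Asns, which makes asparagine, varied more between arrays of a group than 99.4% of genes, with a residual SD of 0.55 against a median of 0.18 over all genes. It read 8.81, 8.04 and 9.82 in control livers, 8.27, 7.48 and 8.16 with T3, 9.10, 8.78 and 8.53 with XCT790, and 7.94, 8.69 and 8.16 with both compounds. The controls alone spanned most of the range of the study, and all groups overlapped them. The T3 difference was -0.92 (95% interval -1.74 to -0.10, limma adjusted p = 0.124). It rested on single control arrays: without control array 2 it was -1.34 and was called (limma adjusted p = 0.0234), and without control array 3 it was -0.45 (limma adjusted p = 0.379).

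In the ER branch, Xbp1, the transcription factor activated by IRE1 splicing, read 13.18, 13.14 and 12.63 in control livers, 12.62, 12.58 and 13.11 with T3, 12.60, 12.69 and 12.86 with XCT790, and 12.72, 12.61 and 12.93 with both. All groups overlapped. The T3 difference was -0.21, with a 95% interval from -0.59 to 0.17, and the XCT790 difference was -0.26 (-0.65 to 0.12). Spliced and unspliced Xbp1 mRNA were not told apart here.

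Among the chaperones, Dnajb9, the BiP cochaperone also known as ERdj4, rose with T3. Probe ILMN_2829636 read 9.61, 9.37 and 9.36 in control livers, 9.93, 10.45 and 10.36 with T3, 9.28, 9.38 and 9.72 with XCT790, and 9.71, 9.83 and 9.90 with both compounds. The T3 arrays were the highest of the study, and the arrays with both compounds lay between them and the control arrays. The T3 rise was 0.80 (SE 0.15, limma adjusted p = 0.00384), a 1.74-fold rise. The second probe, ILMN_2510875, gave 0.37 (adjusted p = 0.0763). In mice given XCT790 the T3 difference was 0.35 (limma adjusted p = 0.151). XCT790 alone left a difference of 0.01, with a 95% interval from -0.32 to 0.35.

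Hspa5, the central ER chaperone BiP, was dim on its kept probe, detected on 10 of 12 arrays, and varied more within groups than 99.3% of genes. BiP mRNA is abundant in liver, so the probe may report it poorly and the values below may not follow its level. It read 5.76, 5.78 and 5.93 in control livers, 5.28, 6.65 and 6.70 with T3, 5.72, 4.85 and 5.97 with XCT790, and 6.10, 5.24 and 5.66 with both. T3 array 1 lay below all controls while the other T3 arrays lay above them. The T3 difference of 0.39 had a 95% interval from -0.43 to 1.20, so the sign of any change was not resolved at this precision. Sdf2l1, an ER protein that works with BiP and Dnajb11, read 7.16, 7.42 and 8.36 in control livers, 7.51, 7.94 and 7.35 with T3, 7.26, 7.58 and 6.68 with XCT790, and 7.33, 7.58 and 7.34 with both. Control array 3 stood 0.71 above its group mean, all groups overlapped, and the T3 difference was -0.05 (95% interval -0.69 to 0.59).

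Herpud1, an ER membrane protein that recruits the degradation machinery, rose with XCT790. Probe ILMN_2790241 read 13.69, 13.58 and 13.86 in control livers, 13.82, 14.14 and 13.91 with T3, 14.40, 14.33 and 14.02 with XCT790, and 14.01, 14.18 and 14.13 with both compounds. All arrays given XCT790, alone or with T3, were above the control arrays, and 1 T3 array lay within the controls' range. The XCT790 rise was 0.54 (SE 0.13, limma adjusted p = 0.0381), or 1.45-fold. This call was lost without control array 1 or 2, XCT790 array 1 or 2, or array 2 of the group given both (adjusted p = 0.0530 to 0.158). The second probe, ILMN_2790246, read 12.71, 13.03 and 13.10 in control livers and 13.46, 13.67 and 13.32 with T3. On that probe every T3 array was above every control array, and the T3 difference of 0.53 passed (limma adjusted p = 0.0124), whereas the leading probe gave 0.24 (limma adjusted p = 0.235). With both compounds the difference on the leading probe was 0.40 (limma adjusted p = 0.0516). The second probe gave 0.60 with XCT790 and 0.46 with both compounds (limma p adjusted over probes = 0.0261 and 0.0300).

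**Figure D2:**
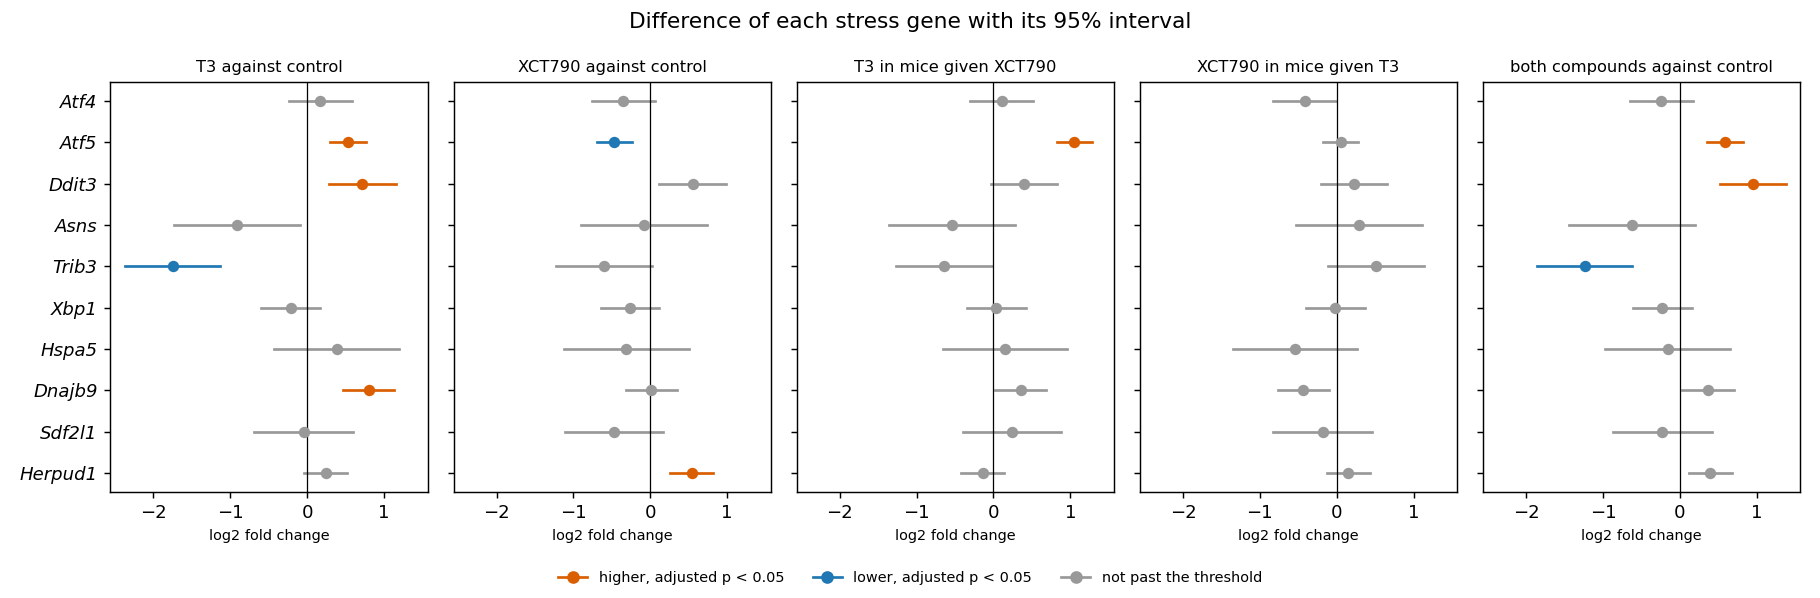
Log2 fold change of each stress gene (horizontal axis) in 5 comparisons, 1 per panel, with the 95% interval of the limma fit as a bar. Coloured points passed an adjusted p of 0.05, orange higher and blue lower; Trib3 with T3 lies farthest from 0 at -1.75.

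The response to T3 was also compared with and without XCT790, as the interaction term of the fit. By limma, 0 of the 10 genes passed, with 2 under 0.05 before adjustment, against 12.1% of all genes, and 0.462% of all genes were called, 0.185% higher and 0.277% lower. Atf5 rose by 0.52 more with T3 in mice given XCT790 (SE 0.15, 95% interval 0.19 to 0.84), which did not pass (limma adjusted p = 0.166). Trib3 fell less with T3 in those mice, the difference of 1.11 (95% interval 0.23 to 1.99) also not passing (limma adjusted p = 0.281). For Dnajb9 the interaction was -0.45 (limma adjusted p = 0.456) and for Herpud1 -0.38 (limma adjusted p = 0.437). The T3 responses of these genes were thus not shown to depend on XCT790.

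**Figure D3:**
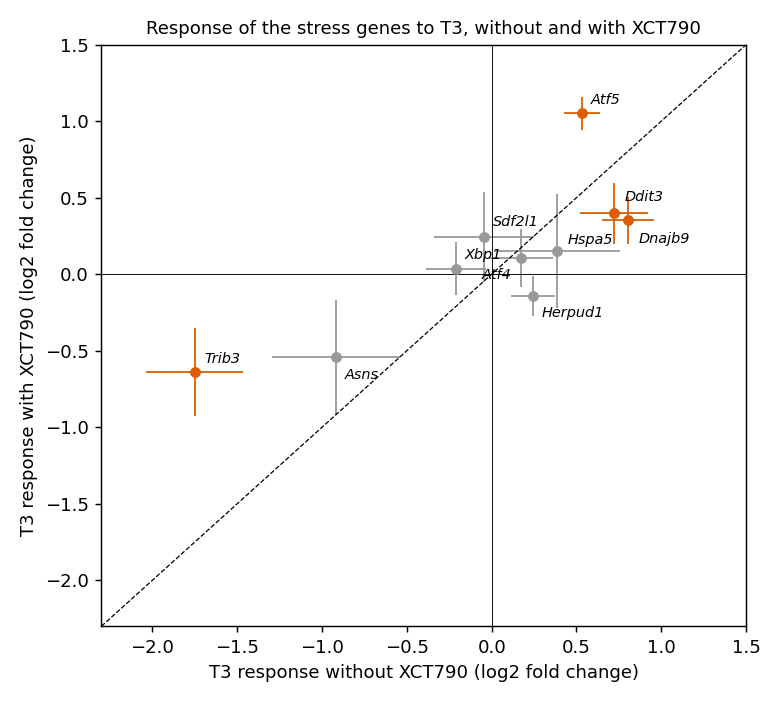
T3 response of each stress gene without XCT790 (horizontal axis) against that with XCT790 (vertical axis), as log2 fold changes with SE bars; orange genes were called in at least 1 of both responses and the dashed line marks equality. Atf5 lies above the line, at 0.53 and 1.05, and Trib3 lies above it at -1.75 and -0.64.

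Other genes of these pathways were counted in 12 lists holding 167 tested genes. T3 raised 18 and lowered 6 of them, 14.4% in all against 16.1% of all genes, and XCT790 raised 6 and lowered 5, 6.59% against 4.44%. In mice given XCT790, T3 raised 22 and lowered 7, 17.4% against 15.2%, and both compounds raised 18 and lowered 13, 18.6% against 18.7%. These totals lay near those of all genes. T3 alone raised 18 and lowered 6, where 7.24% of all genes rose and 8.91% fell. In mice given XCT790 it raised 22 and lowered 7, where 7.63% rose and 7.56% fell. The directions were more even for both compounds against control, at 18 and 13, where 8.97% rose and 9.77% fell. With XCT790 alone the median difference of the 167 was -0.05, against -0.01 over all genes. The lists were chosen with earlier results known and hold Psat1, which passed the filter on dim probes through the arrays given T3. These directions are thus no result about the pathways.

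The lists differed in how many members were called. They were chosen with earlier results of these data known, so their shares are a description. Of 18 other ATF4-linked genes, T3 raised 5 and lowered 3, or 44.4% against 16.1% of all genes called. The median difference was 0.08 against -0.01 over all genes. Cebpb, a bZIP partner of ATF4, read 11.22, 11.52 and 11.40 in control livers and 13.11, 13.37 and 13.32 with T3, a rise of 1.89 (SE 0.12, limma adjusted p = 8.85e-07). It read 12.54, 12.32 and 12.32 with XCT790 and 12.96, 13.12 and 13.19 with both compounds. Every treated array lay above every control array, XCT790 alone raising it by 1.01 (limma adjusted p = 0.000874). Fgf21, a fasting hormone and known ATF4 target, rose with T3 by 2.14 and with both compounds by 2.27 (limma adjusted p = 0.00192 and 0.00117). Ddit4, a brake on mTOR signalling, rose with T3 by 1.23 (SE 0.27, limma adjusted p = 0.0084) and with both compounds by 1.43 (limma adjusted p = 0.0034). XCT790 alone raised Ddit4 by 1.38 (limma adjusted p = 0.014). Leaving out any 1 of arrays 1 and 2 of the control or XCT790 group ended that call (adjusted p from 0.0552 to 0.0649). The T3 difference of Ddit4 in mice given XCT790 was 0.05 (95% interval -0.54 to 0.64), and the interaction of -1.18 did not pass (limma adjusted p = 0.22). Sqstm1, the autophagy receptor p62, had a T3 difference of -0.49 (SE 0.09, limma adjusted p = 0.00324).

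Of 6 tested genes of amino acid synthesis and the serine pathway, T3 raised 2 alone and 3 in mice given XCT790. These were 33.3% and 50%, where 7.24% and 7.63% of all genes rose. Psat1 was among them in each case. The list's median difference was 0.78 in mice given XCT790, and it too includes Psat1. Shmt1, which passes a serine carbon to folate, rose by 1.36 with T3 (SE 0.12, limma adjusted p = 1.51e-05) and by 1.39 in mice given XCT790 (limma adjusted p = 1.32e-05). Psat1, of serine synthesis, read 5.42, 4.99 and 5.03 in control livers, 5.84, 6.10 and 6.12 with T3, 4.88, 5.04 and 5.31 with XCT790, and 6.68, 6.25 and 6.99 with both. The arrays without T3 overlapped and all lay below those with it, and Psat1 was detected on only 1 control array and 1 XCT790 array. It thus passed the filter on dim probes through the arrays given T3, where it is high, and its call supports nothing further. Its T3 difference was 0.87 alone and 1.56 in mice given XCT790, or 0.41 and 0.80 without background correction. Mthfd2, a mitochondrial folate enzyme, rose by 0.97 with T3 in mice given XCT790 (limma adjusted p = 0.00184), or 0.63 without background correction. Its difference with T3 alone was 0.14. Mthfd2 read 7.03, 6.96 and 6.90 in control livers and 6.28, 6.62 and 6.14 with XCT790, below every control array. With both compounds it read 7.08, 7.25 and 7.63, so part of the 0.97 was a return from the lower XCT790 level.

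Of 5 tested amino acid transporters of the ATF4 programme (9 listed), T3 raised 2 and lowered 1, or 60% against 16.1% of all genes called. Of the 2 raised, Slc6a9 (0.48, limma adjusted p = 0.0398) lost its call in 10 of 21 alternatives. Slc1a4, a neutral amino acid transporter, read 6.34, 6.35 and 6.64 in control livers, 5.93, 5.18 and 5.58 with T3, 4.95, 5.28 and 5.37 with XCT790, and 5.98, 6.55 and 6.37 with both compounds. Either compound alone put all arrays below the controls, while the arrays with both overlapped the controls. It was detected on 2 of 3 arrays in each single-compound group. The difference was -0.88 with T3 (limma adjusted p = 0.00998), -1.24 with XCT790 (limma adjusted p = 0.00471) and 1.10 for T3 in mice given XCT790 (limma adjusted p = 0.00332). Without background correction these differences were -0.45, -0.62 and 0.54, all still called. Slc38a2, another neutral amino acid transporter, rose with T3 by 1.03 (SE 0.21, limma adjusted p = 0.00533).

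**Figure D4:**
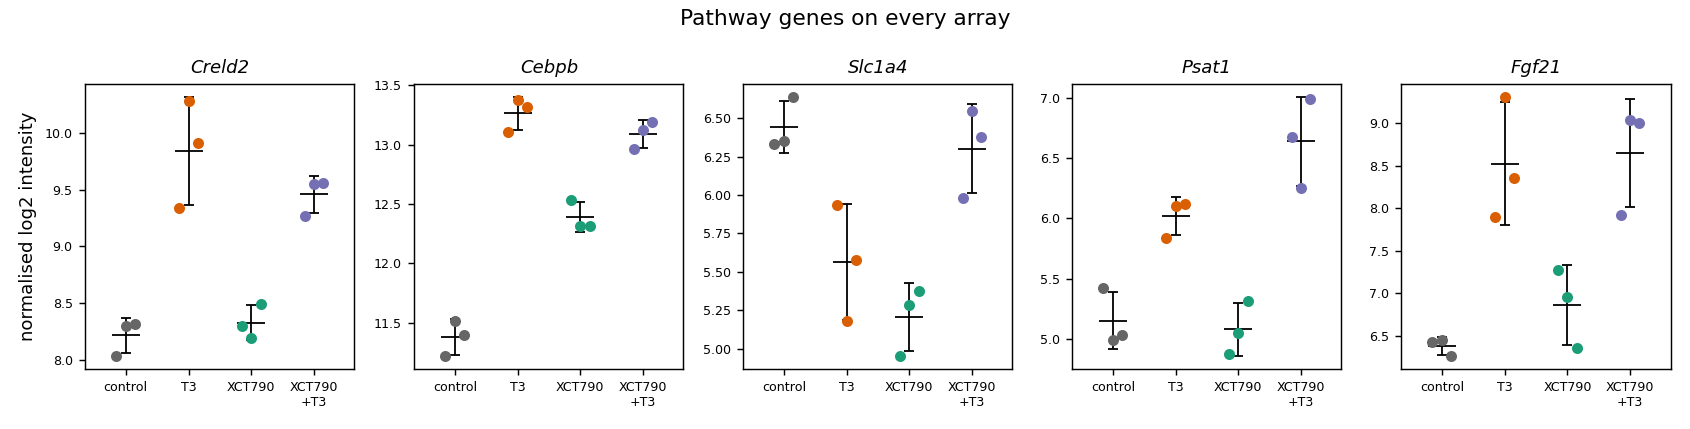
Normalised log2 intensity (vertical axis, scaled per gene) of Creld2, Cebpb, Slc1a4, Psat1 and Fgf21 on each array of the 4 groups (horizontal axis), with the group mean and SD as line and bar. Creld2, Psat1 and Fgf21 were higher on every array given T3 than on any array without it. Psat1 passed the filter on dim probes through the arrays given T3. Slc1a4 was lower with either compound alone.

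Of 20 further ER chaperones and folding enzymes, T3 raised 3 and lowered 1 (20%, against 16.1% of all genes called), with a median difference of 0.06. In mice given XCT790 it raised 4 and lowered 0 (20%, against 15.2%), with a median of 0.20. Creld2, an ER stress-inducible chaperone, read 8.04, 8.30 and 8.31 in control livers, 9.33, 10.28 and 9.91 with T3, 8.30, 8.20 and 8.50 with XCT790, and 9.27, 9.55 and 9.56 with both. All arrays given T3 lay above all arrays without it. The T3 rise was 1.62 (SE 0.20, limma adjusted p = 0.000188), and 1.13 in mice given XCT790 (limma adjusted p = 0.00272). XCT790 alone moved none of the 20 past the threshold by limma, where 4.44% of all genes were called. Before adjustment 6 were under 0.05, where 17.9% of all genes were, and the median difference was -0.22.

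Of 26 genes of ER translocation and N-glycosylation, T3 raised 2 alone (7.69%, against 7.24% of all genes) and 7 in mice given XCT790 (7.63% of all genes), and lowered 0 in either case. XCT790 alone raised 0 and lowered 1 (3.85%, against 4.44% of all genes called), with a median difference of -0.13. Before adjustment 9 were under 0.05, where 17.9% of all genes were. Both compounds raised 2 and lowered 1 against control (11.5%, against 18.7%). Sec61b, a translocon subunit, rose by 0.41 and 0.50 (limma adjusted p = 0.00825 and 0.00308), and Ostc, of the oligosaccharyltransferase, rose by 0.62 in mice given XCT790 (limma adjusted p = 0.00822), its differences being 0.10 with T3 alone and -0.38 with XCT790 alone. By limma, T3 alone moved 0 of 17 cytosolic aminoacyl-tRNA synthetases (1 under 0.05 before adjustment), 0 of 10 sensors and transducers of the unfolded protein response (2), 0 of 17 ER-associated degradation genes (2) and 0 of 15 COPII and Golgi transport genes (0). Over all genes 16.1% were called with T3 and 29.9% were under 0.05 before adjustment. Of 12 eIF2 kinases, phosphatase subunits and exchange factor subunits, T3 raised 2 and lowered 0 (16.7%). It raised 1 and lowered 1 of 12 mitochondrial chaperones and proteases (16.7%), where Dnaja3, a mitochondrial cochaperone, rose by 0.68 (limma adjusted p = 0.00104). Of 10 cytosolic heat shock genes it raised 1 and lowered 0 (10%).

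**Figure D5:**
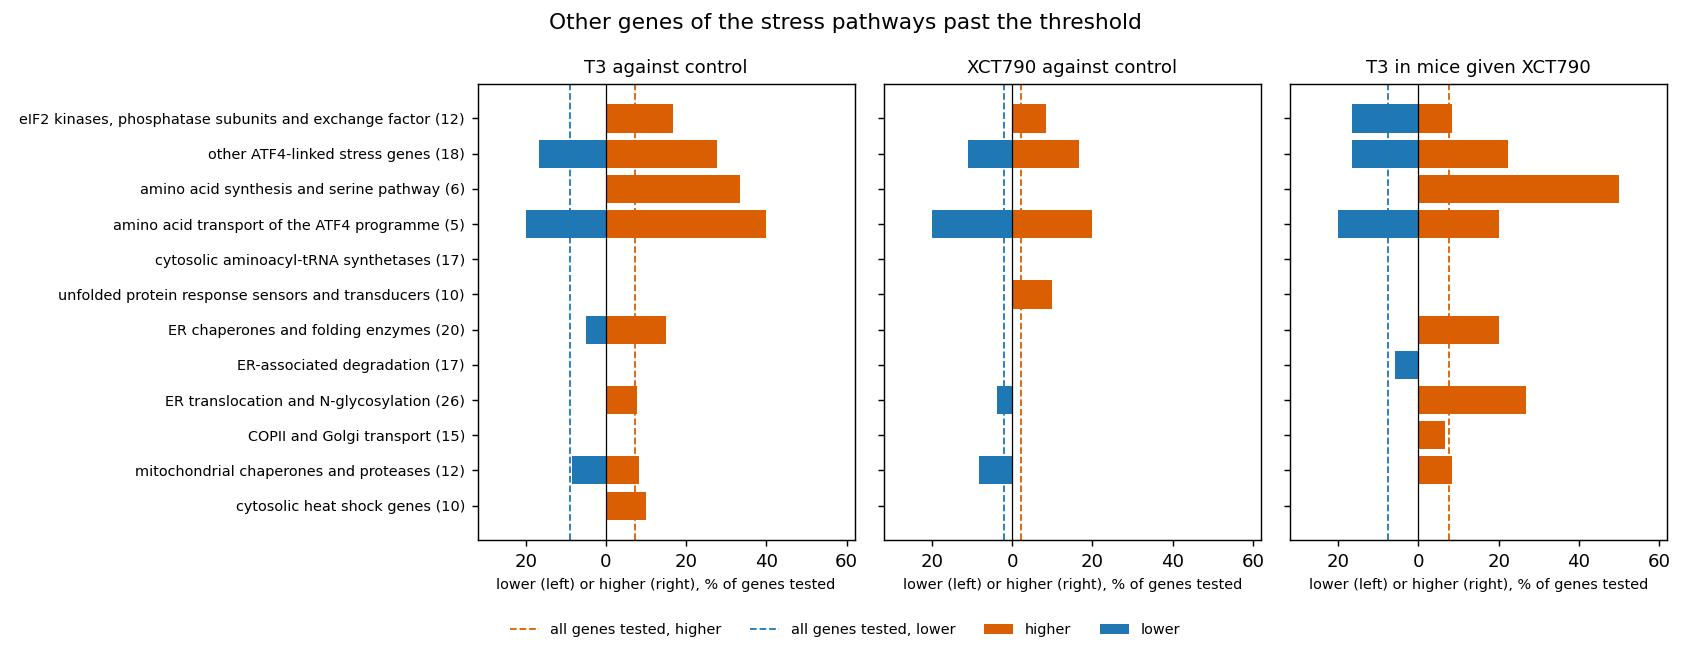
Share of the tested genes of each of the 12 pathway lists (list sizes in brackets) called higher (right, orange) or lower (left, blue) in 3 comparisons, in percent. Dashed lines mark the same shares over all genes, 7.24% higher and 8.91% lower for T3 against control. The 18 other ATF4-linked genes and the 5 amino acid transporters exceed them in both directions in all 3 comparisons. The 12 eIF2 genes do so for T3 in mice given XCT790.

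Among markers of other liver cells, those of Kupffer cells and macrophages moved most with T3. Of 10 tested Kupffer cell and macrophage markers (12 listed), T3 raised 7 alone and 6 in mice given XCT790 and lowered 0, where 7.24% and 7.63% of all genes rose. XCT790 alone raised 0 by limma, with 1 under 0.05 before adjustment, and both compounds raised 3 against control, where 8.97% of all genes rose. Their summed intensity was 2680 to 4481 in control livers, 5336 to 6429 with T3, 2661 to 3201 with XCT790 and 3796 to 6483 with both compounds. T3 moved 0 of 11 liver endothelial markers by limma (4 under 0.05 before adjustment). Their summed intensity was 5943 to 7403, 7819 to 8585, 6400 to 7137 and 7400 to 8082 in the same order. That sum was carried mostly by the bright probe of Clec4g. It read 12.36, 12.18 and 12.00 in control livers and 12.56, 12.46 and 12.41 with T3. The part of these cell types in the T3 differences above was not tested. In whole liver a change in the number of cells of a type cannot be told apart from a change in RNA per cell. Of 2 tested cholangiocyte markers T3 lowered 1, Sox9. Of 8 stellate, 3 lymphocyte and plasma cell and 2 neutrophil and monocyte markers it moved 0 by limma, with 2, 0 and 0 under 0.05 before adjustment. Over all genes 16.1% were called with T3 and 29.9% were under 0.05 before adjustment.

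The genes whose log2 intensity ran most like that of a stress gene were found over the 12 arrays, which form 4 treatment groups and share a single normalization, so that each r is a description. Atf5 ran closest to Col15a1, Mmd2 and Lrrc8d (r = 0.98, 0.976 and 0.972). Trib3 ran closest to S1pr2, Use1 and Slco1b2 (r = 0.945, 0.944 and 0.943), and Ddit3 to Angptl4, Sar1a and Foxo1 (r = 0.938, 0.937 and 0.93). Dnajb9 ran closest to Osbpl9, Ier3ip1 and Mthfs (r = 0.938, 0.927 and 0.918). Atf4 ran closest to Lman1, Surf4 and Ndrg2 (r = 0.95, 0.942 and 0.936), of which Lman1 and Surf4 are cargo receptors of ER to Golgi transport. Herpud1 ran closest to Rhobtb1, Zfp597 and Rusc2 (r = 0.933, 0.929 and 0.921), and Asns to Thap7, Dctn4 and Mrm1 (r = 0.921, 0.916 and 0.884). Hspa5 ran closest to Sec24d, Mex3a and Iars (r = 0.89, 0.874 and 0.869). For Xbp1 the closest were Man2a2, Tyk2 and Clec7a (r = 0.888, 0.828 and 0.806), and for Sdf2l1 they were H2bc11, Pcnt and Mrps27 (r = 0.89, 0.833 and 0.828). None of the 10 genes was among the closest of another.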

How the data were processed

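Per the file headers, the deposited table holds the raw probe intensity and a detection p-value on each of 12 arrays, and a deposited matrix holds processed intensity. The submitters' processing notes name Partek 6.6, without its step. Intensities were corrected with limma's normexp model (background from the detection p-values, offset 16), quantile-normalized and log2-transformed with limma 3.58.1 (R 4.3.3). Of 45281 probes, 17218 were kept. Names came from the platform annotation, with 34885 probes of 1 symbol, 18 of several and 10378 of none. The kept probe of highest mean stood for a gene. A mean per group was fitted to all 12 arrays by lmFit and contrasts were tested with eBayes, two-sided, with Benjamini-Hochberg adjustment over all 9747 genes. Log2 fold changes include the offset, which understates changes of dim genes. The number of arrays limits the precision. The method was tested on simulated data.

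The 10 genes and all lists were chosen with earlier results of these data known. The text names all 10, and of each pathway list up to 4 called genes of lowest p per comparison, of which it describes ones that kept a call under all 21 alternatives; these include the processed matrix, which equals no background correction. The 3 most correlated genes are named for each of the 10. Alternatives covered background, offset, scaling, the processed matrix, filters, probe choice, array weights, a replicate block and leaving out each array. Sequences are RefSeq windows, build GRCm38.p6.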

Additional observations from a re-analysis of the deposited data

Results flagged for a closer look

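Among the stress and pathway genes, the T3 response differed with and without XCT790 in 2, by limma's interaction term. Both are pathway genes, and they are 1.2% of the 167, against 0.462% of all genes called. For Cebpb the T3 response with XCT790 was lower than that without it by a log2 difference of -1.19 (SE 0.17, limma adjusted p = 0.0121). T3 raised Cebpb by 1.89 alone and by 0.70 in mice given XCT790, and on every array of the T3 group and of the group given both it was above all control and XCT790 arrays. For Slc1a4 the T3 response was higher with XCT790 by 1.98 (SE 0.28, limma adjusted p = 0.0133), the response being -0.88 alone and 1.10 in mice given XCT790. In both genes the call held under all 21 alternatives, with adjusted p between 0.000893 and 0.0452 for Cebpb and between 0.00371 and 0.0433 for Slc1a4. The size for Slc1a4 depended on the background: it was 0.99 without background correction and 1.24 with an offset of 50. Slc1a4 was dim, and detected on 2 of 3 arrays in the T3 group and in the XCT790 group.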

How the results depend on the processing

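Under all 22 alternatives, 1 of them (the second probe) chosen after seeing the data, limma kept the calls of Atf5 for T3, for T3 in mice given XCT790 and for both compounds, and of Trib3 for T3 and for both compounds. The deposited processed matrix gave the same counts and medians as no background correction in all 6 contrasts. These are thus in effect 1 alternative, though the counts of alternatives given here take them as 2. Dnajb9 with T3 lost its call only on the second probe. The count of the 10 genes called for XCT790 against control was 2 as reported, 1 with median scaling and 0 to 2 on leaving out an array. For T3 in mice given XCT790 it was 1, and 1 to 2 on leaving out an array, with 2 without XCT790 array 3, where Trib3 was also called, at -0.92. With the mean over probes, Ddit3 was not called for T3 (adjusted p = 0.0898) or for both compounds (0.0662), and on the second probe not for both compounds either (0.434). Herpud1 for both compounds passed in 10 alternatives. Fewer arrays leave less precision by construction; otherwise the cause was not tested.

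Same-numbered arrays of different groups did not deviate together: 2 of 18 pairs had a correlation over 0.1 and 4 of 12 arrays correlated best with their own number, so the numbers were not taken as pairs. With the replicate block, the genes called numbered 1 for XCT790 against control, where Herpud1 had an adjusted p of 0.0658, and 2 for T3 in mice given XCT790, where Trib3 had 0.0387.

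Signs turned only in differences that had not passed. With array weights Asns and Dnajb9 for XCT790 were 0.085 and -0.023, and the Atf4 interaction 0.067. With median scaling Xbp1 was -0.022 for T3 in mice given XCT790 and 0.084 for XCT790 in mice given T3. On the second probe Ddit3 was -0.057 and -0.16 in those comparisons, Herpud1 -0.073 for XCT790 in mice given T3, and Atf4 0.044 for both compounds. On leaving out an array, T3 gave -0.020 to 0.30 for Atf4 and -0.29 to 0.31 for Sdf2l1. XCT790 gave -0.51 to 0.38 for Asns, -0.53 to 0.019 for Hspa5 and -0.12 to 0.10 for Dnajb9. T3 in mice given XCT790 gave -0.052 to 0.11 for Xbp1, -0.18 to 0.37 for Hspa5 and -0.0070 to 0.45 for Sdf2l1. XCT790 in mice given T3 gave -0.042 to 0.10 for Atf5 and -0.11 to 0.15 for Xbp1. Both compounds gave -0.38 to 0.054 for Hspa5 and -0.47 to 0.13 for Sdf2l1. The interaction ran from -0.20 to 0.13 for Atf4, -0.091 to 0.80 for Asns, -0.70 to 0.010 for Hspa5 and -0.068 to 0.53 for Sdf2l1. Of the pathway calls followed, 11 of 20 for T3, 4 of 10 for XCT790, 11 of 23 for T3 in mice given XCT790 and 11 of 26 for both compounds held under all 21 alternatives. Over all genes, the calls ran from 17 to 141 for the interaction (45 as reported) and from 1 to 17 for XCT790 in mice given T3 (9), highest without background correction in both. They ran from 186 to 611 for XCT790 against control (433) and from 971 to 1676 for T3 in mice given XCT790 (1481). The dim Hspa5 probe limits what could be seen of that gene.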
